A study of Sus scrofa with 6 samples.

Results

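The autophagy machinery was examined as a set of 35 genes, from the kinases that start an autophagosome to the receptors that load it, in RNA sequencing of minipig ventricular myocardium. All 35 symbols were found in the deposited table of 13288 genes, each in a single row, and none was absent. Of these, 33 had at least 1 FPKM (fragments per kilobase of transcript, scaled to the mapped fragments of the library) in at least 3 of the 6 samples and were compared between the groups, and ATG10 and ATG4C did not pass this minimum. The 3 sham animals (replicates 1 to 3) were male Tibetan minipigs with a thoracotomy and no constriction, and the 3 animals of the DAC group (replicates 4 to 6) had the same opening of the chest with constriction of the descending aorta. Ventricular tissue was taken from both groups at week 12 after surgery, and the age of the animals was not given in the sources used here. Each value came from whole tissue of 1 minipig, so fewer cells of a type and less RNA per cell cannot be told apart.

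In autophagy, a cell encloses part of its own cytoplasm in a double membrane, the autophagosome, and delivers it to the lysosome for breakdown and reuse. A kinase complex and a lipid kinase complex start the membrane, a lipid transfer system enlarges it, and a conjugation system attaches small ubiquitin-like proteins of the ATG8 family to it, which in turn hold the receptors that carry cargo. Cardiomyocytes are long-lived cells that depend on this pathway to remove worn proteins and mitochondria, and starvation and mechanical load are known to alter it.

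The tissue was checked against marker genes. Of 12 cardiomyocyte markers, 8 were found, and their summed level was 14416 to 15119 FPKM in the sham samples and 13596 to 16648 FPKM in the DAC samples, which overlapped. The 9 fibroblast markers summed to 503 to 575 FPKM in the sham samples and 721 to 831 FPKM in the DAC samples, and 6 of them were upregulated. These were COL1A1, COL1A2, COL3A1, FN1, LUM and POSTN. DCN (log2 fold change -0.012), TCF21 (-0.022) and PDGFRA (0.24) were not called. The summed markers overlapped between the groups for endothelial cells (8 genes), smooth muscle and pericytes (7 genes) and leukocytes (8 genes). The sums for red blood cells (2 genes) and adipocytes (3 genes) overlapped as well. Single markers within these sums were called all the same. Of the endothelial markers, VWF (log2 fold change -0.49) and FLT1 (-0.44) were downregulated and KDR (0.60) was upregulated. The smooth muscle marker CNN1 was upregulated (0.60), and the macrophage marker CD163 (-0.43) and the cardiomyocyte marker RYR2 (-0.41) were downregulated. The 13 mitochondrially encoded genes took 24.0% to 25.3% of all FPKM in the sham samples and 27.1% to 32.8% in the DAC samples, without overlap. The part of the fibroblast and the other called markers in the results for the autophagy genes was not tested, and for the mitochondrial share the values after rescaling are given below. Sequencing depth is unknown, so the spread between minipigs is the only error given.

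Members differed widely in level, and the receptor and the ATG8 genes led. SQSTM1, the receptor also called p62, was the most abundant of the 35 in each sample, with a mean of 169 FPKM over all samples. MAP1LC3A followed with 122 FPKM and GABARAPL1 with 116 FPKM, and the values of these ATG8 genes overlapped, so their order is not resolved. These 3 genes took 50.2% to 54.0% of the FPKM of the 35 genes in the sham samples and 46.4% to 49.0% in the DAC samples. OPTN (50.8 FPKM) and TAX1BP1 (35.2 FPKM), a further pair of receptors, came next. In all, 18 of the 35 genes had a mean of at least 10 FPKM. The lowest were ATG10 (0.915 FPKM), which joins ATG12 to ATG5, and ATG4C (0.990 FPKM), a protease. The summed level of the 35 genes was 830 to 864 FPKM in the sham samples and 746 to 798 FPKM in the DAC samples.

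**Figure D1:**
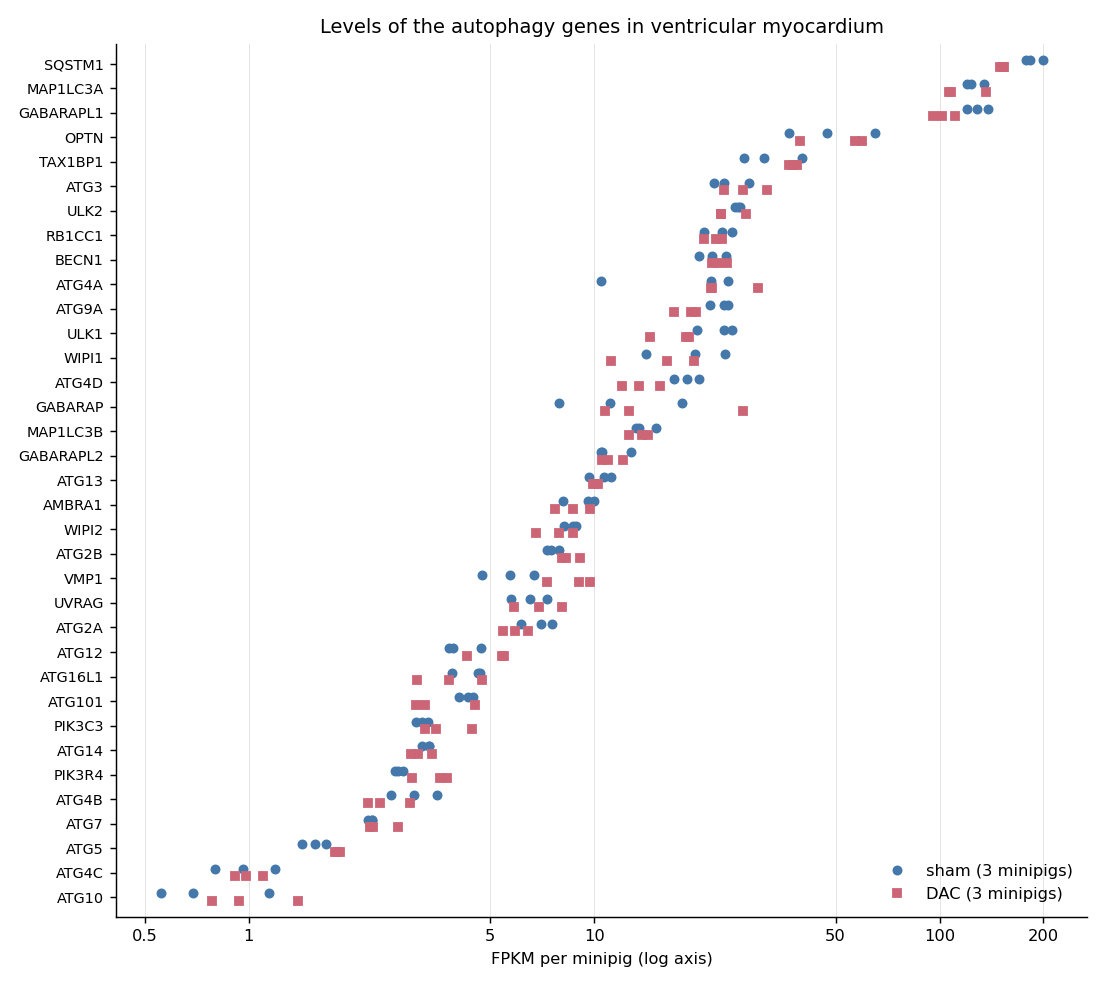
FPKM of each of the 35 autophagy genes (rows, ordered by mean level) on a log axis, with circles for the 3 sham minipigs and squares for the 3 DAC minipigs. SQSTM1, MAP1LC3A and GABARAPL1 lie near or above 100 FPKM, ATG10 and ATG4C lie near 1 FPKM, and for SQSTM1 and GABARAPL1 all DAC points lie to the left of all sham points.

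To see which steps differed after pressure overload, log2(FPKM + 1) was compared between the DAC and sham groups with limma's moderated test, and a gene was called at an unadjusted P under 0.05, the threshold of the study. In the DAC myocardium, 5 of the 33 genes tested were downregulated (15.2%, against 5.27% of all 11029 genes tested). They were SQSTM1, GABARAPL1, ATG9A, ULK1 and ATG4D, each from a different step of the pathway. VMP1 was the 1 upregulated gene (3.03%, against 3.25% of all genes tested). Together 6 of 33 genes were called (18.2%, against 8.51% of all genes tested). None had an adjusted P under 0.05 over all genes, and the smallest adjusted P of a member was 0.50 (limma, Benjamini-Hochberg), while the smallest of any gene was 0.106. Without sham replicate 1, 1 member was downregulated, and the share over all genes tested was then 3.26%. Without sham replicate 3 or DAC replicate 4, 3 members were downregulated, beside 3.51% and 4.67% of all genes tested.

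The median log2 fold change of the 33 genes was -0.048, beside -0.016 over all genes tested. These backgrounds were not matched for level, and all 5 downregulated members had a mean of at least 10 FPKM. With a minimum of 5 FPKM in place of 1, the medians were -0.051 for members and -0.037 for all genes. At that minimum 6.6% of all genes were downregulated. The part of level in these differences was not tested. The mean was lower in the DAC group for 19 members (57.6%, against 53.4% of all genes tested) and higher for 14. The 95% interval of the log2 fold change included 0 for 27 members and lay wholly within 0.5 of 0 for 17. All DAC samples lay below all sham samples in 5 members (15.2%, against 8.91% of all genes tested), which are the 5 downregulated genes. All DAC samples lay above all sham samples in 4 members, VMP1, PIK3R4, ATG2B and ATG5 (12.1%, against 6.01% of all genes tested). For each of these 9 genes the exact two-sided permutation P was 0.10, the smallest that 3 samples against 3 allow.

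**Figure D2:**
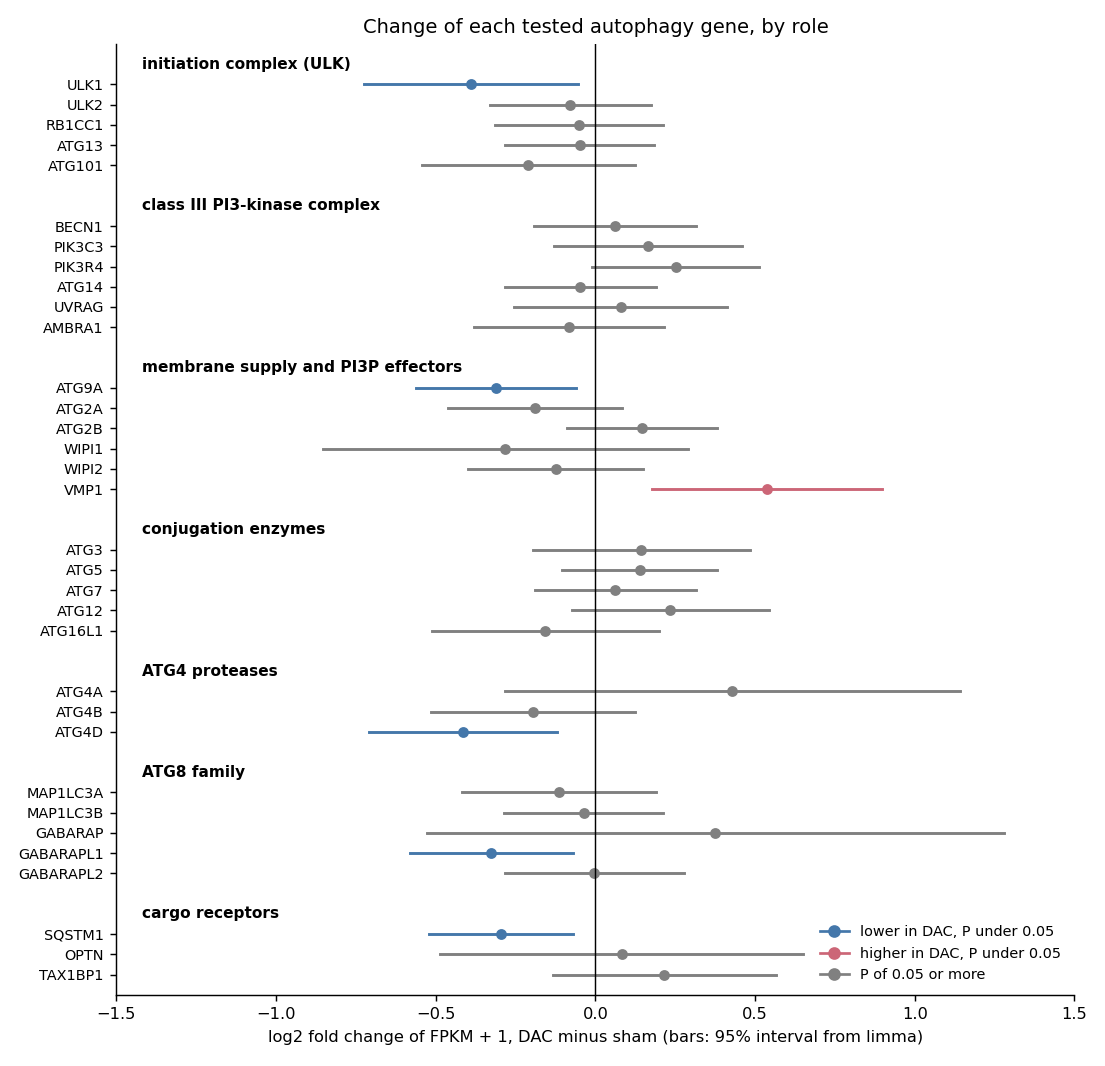
Log2 fold change (DAC minus sham, on FPKM + 1) of the 33 tested genes, grouped by role, with bars for the 95% interval from limma. The 5 genes in blue (ULK1, ATG9A, ATG4D, GABARAPL1, SQSTM1) and VMP1 in red have intervals that leave out 0, and the widest interval is that of GABARAP, from -0.53 to 1.28.

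Among the cargo receptors, SQSTM1 fell and the other two did not pass the test. SQSTM1 (chr2:78752768-78784256 on susScr11, - strand) binds ubiquitin on its cargo and ATG8 proteins on the membrane, and is itself broken down with the cargo. It was at 200, 183 and 178 FPKM in the sham samples and at 149, 153 and 154 FPKM in the DAC samples. The DAC samples lay close together and all below the lowest sham sample. The sham mean was 187 ± 11.3 FPKM and the DAC mean 152 ± 2.32 FPKM (SD, n = 3 each), 18.7% lower. The log2 fold change of SQSTM1 was -0.29 (standard error 0.096, 95% interval -0.52 to -0.069, limma adjusted P = 0.522). SQSTM1 was no longer called without sham replicate 1, at a log2 fold change of -0.25, or after quantile normalization, at -0.19. OPTN, a receptor of ubiquitinated mitochondria and bacteria, was at 36.7, 47.1 and 65.1 FPKM in the sham samples and at 57.1, 59.7 and 39.3 FPKM in the DAC samples, and the DAC values fell within the sham range. TAX1BP1, which also binds ubiquitinated cargo, had a log2 fold change of 0.22 (95% interval -0.13 to 0.56). TAX1BP1 was at 27.2, 39.9 and 31.0 FPKM in the sham samples and at 38.6, 36.8 and 37.6 FPKM in the DAC samples, which lay close together within the sham range. Without sham replicate 2, the highest of the 6, TAX1BP1 was called upregulated, at a log2 fold change of 0.36.

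In the ATG8 family, whose members are the proteins attached to the autophagosome membrane, GABARAPL1 was lower in the DAC group and the LC3 genes were not called. GABARAPL1 (chr5:61757488-61767593, - strand) was at 129, 138 and 120 FPKM in the sham samples and at 111, 101 and 96.0 FPKM in the DAC samples. The groups did not overlap. The sham mean was 129 ± 8.95 FPKM and the DAC mean 103 ± 7.65 FPKM (SD, n = 3 each), 20.4% lower. Its log2 fold change was -0.33 (standard error 0.11, 95% interval -0.58 to -0.072, limma adjusted P = 0.530). The call was lost without sham replicate 1, sham replicate 2 or DAC replicate 6, and after quantile normalization, where the log2 fold change was -0.24. MAP1LC3A, the more abundant LC3 gene, was at 120, 123 and 135 FPKM in the sham samples and at 107, 136 and 108 FPKM in the DAC samples, with DAC replicate 5 the highest of the 6. MAP1LC3B, the form most used as an autophagosome marker, had a log2 fold change of -0.036 (95% interval -0.29 to 0.21) at a mean of 13.7 FPKM. GABARAPL2 had a log2 fold change of -0.0032 (95% interval -0.28 to 0.28) at a mean of 11.2 FPKM. GABARAP was the least even member, at 7.89, 17.9 and 11.1 FPKM in the sham samples and 26.9, 12.6 and 10.8 FPKM in the DAC samples, so that DAC replicate 4 stood above the rest. The annotated position of GABARAP overlaps that of PHF23 on the same strand.

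The makeup of the family was then set out within each sample, since FPKM is per length and levels of different genes can be compared on it. MAP1LC3A and GABARAPL1 held most of the summed FPKM of the 5 genes. The share of GABARAPL1 was 45.9%, 45.0% and 41.5% in the sham samples and 41.2%, 36.8% and 40.1% in the DAC samples, without overlap. Its mean share was 44.1% ± 2.30 (SD, n = 3) in the sham group and 39.4% ± 2.29 (SD, n = 3) in the DAC group, a difference of -4.73 percentage points (exact two-sided permutation P = 0.10, adjusted P = 0.275 over the 11 shares compared). The shares of MAP1LC3A, MAP1LC3B, GABARAP and GABARAPL2 overlapped between the groups. The summed level of the family was 280 to 308 FPKM in the sham samples and 239 to 275 FPKM in the DAC samples.

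**Figure D3:**
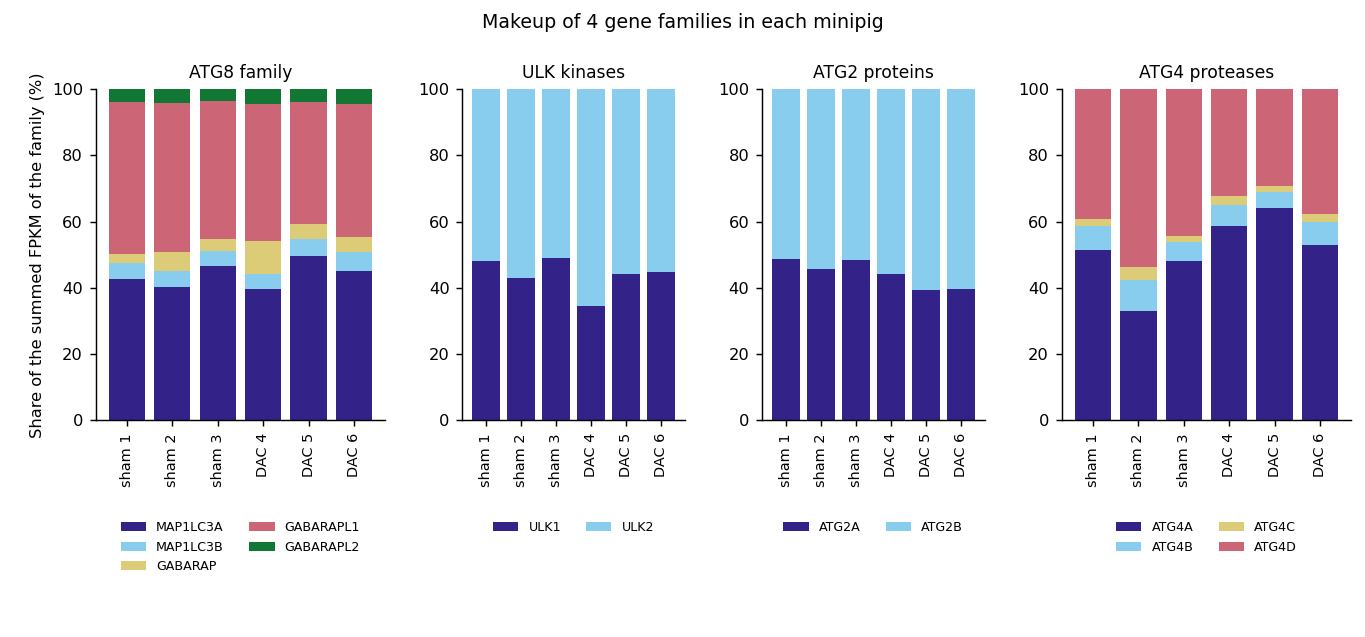
Share (%) of each gene in the summed FPKM of its family, 1 stacked bar per minipig, for the ATG8 family, the ULK kinases, the ATG2 proteins and the ATG4 proteases. GABARAPL1 takes 36.8% to 41.2% of the ATG8 bars in the DAC minipigs and 41.5% to 45.9% in the sham minipigs, and ATG4A takes 52.9% to 64.1% of the ATG4 bars in the DAC minipigs and 33.0% to 51.4% in the sham minipigs.

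The ATG4 proteases, which trim newly made ATG8 proteins and later release them from membranes, did not move together. ATG4D (chr2:69320331-69330163, + strand) was at 18.6, 17.1 and 20.1 FPKM in the sham samples and at 12.1, 13.5 and 15.5 FPKM in the DAC samples. Every DAC sample was below every sham sample. The sham mean was 18.6 ± 1.52 FPKM and the DAC mean 13.7 ± 1.73 FPKM (SD, n = 3 each), 26.2% lower. The log2 fold change of ATG4D was -0.42 (standard error 0.13, 95% interval -0.71 to -0.12, limma adjusted P = 0.508), and each fit without 1 of the samples gave a value from -0.50 to -0.33 and a call. Its position overlaps that of KRI1 on the opposite strand by 1966 bases, and KRI1, which was not called, had a log2 fold change of -0.19. ATG4A, the most abundant of the 4 on average, was at 24.4, 10.4 and 21.7 FPKM in the sham samples and at 22.0, 29.7 and 21.8 FPKM in the DAC samples, and sham replicate 2 stood apart as the lowest. ATG4B, with the widest substrate range, had a log2 fold change of -0.19 (95% interval -0.51 to 0.13) at a mean of 2.77 FPKM. As a share of the summed FPKM of the 4 proteases, ATG4A was at 44.2% ± 9.84 (SD, n = 3) in the sham group and 58.5% ± 5.59 (SD, n = 3) in the DAC group, and ATG4D was at 45.8% ± 7.43 and 33.0% ± 4.28 (SD, n = 3 each). Neither share overlapped between the groups (exact two-sided permutation P = 0.10 each, adjusted P = 0.275 over the 11 shares). Sham replicate 2 had the lowest share of ATG4A (33.0%) and the highest of ATG4D (53.8%), and without it the differences went from 14.3 to 8.75 percentage points for ATG4A and from -12.8 to -8.82 for ATG4D.

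Of the initiation complex, in which ULK1 or ULK2 is the kinase and RB1CC1, ATG13 and ATG101 are the scaffold, ULK1 alone passed the test. ULK1 (chr14:23423696-23448138, - strand) was at 23.7, 19.9 and 25.1 FPKM in the sham samples and at 14.5, 18.5 and 18.8 FPKM in the DAC samples. The highest DAC sample lay just under the lowest sham sample. The sham mean was 22.9 ± 2.69 FPKM and the DAC mean 17.3 ± 2.38 FPKM (SD, n = 3 each), 24.5% lower. Its log2 fold change was -0.39 (standard error 0.14, 95% interval -0.72 to -0.053, limma adjusted P = 0.555). The call was lost without sham replicate 1, sham replicate 3 or DAC replicate 4, with log2 fold changes down to -0.28, and with the variance of ULK1 estimated on its own. ULK2 was at a similar level, with a sham mean of 26.0 ± 0.435 FPKM and a DAC mean of 24.7 ± 2.49 FPKM (SD, n = 3 each), and its log2 fold change was -0.079 (95% interval -0.33 to 0.17). The summed level of both kinases was 46.3 to 51.2 FPKM in the sham samples and 41.7 to 42.1 FPKM in the DAC samples. The share of ULK1 in the sum of both kinases was 43.0% to 48.9% in the sham samples and 34.5% to 44.8% in the DAC samples, which overlapped, and the difference went from -5.48 to -2.16 percentage points without DAC replicate 4. RB1CC1 and ATG13 had log2 fold changes of -0.053 and -0.050, with 95% intervals of -0.32 to 0.21 and -0.28 to 0.18. ATG101, which stabilizes ATG13, was at 3.23 and 3.06 FPKM in DAC replicates 4 and 5 and at 4.53 FPKM in DAC replicate 6, above all sham samples (4.07 to 4.47 FPKM). Without DAC replicate 6, ATG101 was called downregulated, at a log2 fold change of -0.35 in place of -0.21.

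None of the 6 genes of the class III phosphatidylinositol 3-kinase group was called. This complex makes the lipid that marks the site of the growing membrane. PIK3R4, its regulatory subunit, was at 2.65, 2.69 and 2.79 FPKM in the sham samples and at 2.97, 3.74 and 3.57 FPKM in the DAC samples. The groups did not overlap, and the log2 fold change was 0.25 (standard error 0.11, 95% interval -0.011 to 0.51, limma adjusted P = 0.593). PIK3R4 was called after removal of the mitochondrially encoded genes (log2 fold change 0.28), without DAC replicate 4 (0.33) and with its variance estimated on its own. PIK3C3, the catalytic subunit, had a log2 fold change of 0.17 (95% interval -0.13 to 0.46), with DAC replicate 4 the highest at 4.42 FPKM. BECN1, the scaffold subunit often measured as an autophagy gene, had a sham mean of 22.0 ± 1.94 FPKM and a DAC mean of 23.0 ± 1.18 FPKM (SD, n = 3 each). Its log2 fold change was 0.061 (95% interval -0.19 to 0.31). ATG14 and UVRAG, the alternative partners that direct the complex to autophagosomes or to endosomes, had log2 fold changes of -0.048 and 0.079. AMBRA1, a regulator of BECN1, had a log2 fold change of -0.083 (95% interval -0.38 to 0.22).

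Genes for membrane supply gave both directions. VMP1, a lipid scramblase of the endoplasmic reticulum needed to form autophagosomes, had the largest fold change of the 33 genes. VMP1 (chr12:35933192-36065956, + strand) was at 4.73, 5.69 and 6.68 FPKM in the sham samples and at 9.04, 9.75 and 7.32 FPKM in the DAC samples. All DAC samples were higher than all sham samples. The sham mean was 5.70 ± 0.973 FPKM and the DAC mean 8.71 ± 1.25 FPKM (SD, n = 3 each), 52.8% higher. Its log2 fold change was 0.54 (standard error 0.15, 95% interval 0.18 to 0.90, limma adjusted P = 0.50). Each fit without 1 of the samples gave a value from 0.43 to 0.64 and a call. The position of VMP1 overlaps that of the gene of the microRNA MIR21 in RefSeq on Sscrofa11.1, and by 35 bases that of PTRH2, which had a log2 fold change of 0.051 and was not called.

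ATG9A, a lipid scramblase carried on vesicles that seed the membrane, moved the other way. ATG9A (chr15:121254355-121282516, - strand) was at 23.8, 21.7 and 24.5 FPKM in the sham samples and at 17.1, 19.0 and 19.7 FPKM in the DAC samples, without overlap. The sham mean was 23.3 ± 1.45 FPKM and the DAC mean 18.6 ± 1.38 FPKM (SD, n = 3 each), 20.2% lower. The log2 fold change of ATG9A was -0.31 (standard error 0.11, 95% interval -0.56 to -0.061, limma adjusted P = 0.546). The call was lost without sham replicate 1, sham replicate 3 or DAC replicate 4. ATG9A lies whole within ENSSSCG00000016215, an unnamed gene listed on the opposite strand with a mean of 26.9 FPKM in the sham group and 18.9 FPKM in the DAC group, where DAC replicate 4 was at 7.43 FPKM. How reads in the shared stretch were assigned is not given in the sources used here, so the level of ATG9A is uncertain.

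ATG2A and ATG2B, the paralogous bridges that carry lipids into the growing membrane, had means that differed in opposite directions, and neither was called. ATG2A was at 7.54, 6.13 and 7.03 FPKM in the sham samples and at 6.41, 5.90 and 5.44 FPKM in the DAC samples (log2 fold change -0.19, limma adjusted P = 0.663). ATG2B was at 7.92, 7.29 and 7.49 FPKM in the sham samples and at 8.06, 9.09 and 8.31 FPKM in the DAC samples (log2 fold change 0.15, limma adjusted P = 0.701). The share of ATG2A in their sum was 48.8%, 45.7% and 48.4% in the sham samples and 44.3%, 39.4% and 39.6% in the DAC samples. These shares did not overlap, with a difference of -6.54 percentage points (exact two-sided permutation P = 0.10, adjusted P = 0.275 over the 11 shares), while the mean of their sum was 14.5 ± 1.02 FPKM for sham and 14.4 ± 0.619 FPKM for DAC (SD, n = 3 each). WIPI1 and WIPI2 read the lipid signal of the membrane. WIPI1 varied widely, from 14.2 to 23.9 FPKM in the sham group and from 11.2 to 19.5 FPKM in the DAC group. WIPI2 had a log2 fold change of -0.13 (95% interval -0.40 to 0.15).

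The conjugation enzymes attach ATG8 proteins to lipid, and none of the 5 tested was called. ATG5, which is joined to ATG12, was at 1.43, 1.68 and 1.55 FPKM in the sham samples and at 1.78, 1.82 and 1.83 FPKM in the DAC samples. The groups did not overlap, and the log2 fold change was 0.14 (limma adjusted P = 0.719). ATG5 was called with its variance estimated on its own. The position of ATG5 overlaps that of PRDM1 by 23587 bases and that of CRYBG1 by 4512 bases, both on the opposite strand, and both were listed at higher values in every DAC sample than in any sham sample. ATG12 had a log2 fold change of 0.23 (95% interval -0.075 to 0.54), and it was called without DAC replicate 5, at 0.33. ATG3, which transfers ATG8 proteins to lipid, and ATG7, which activates them, had log2 fold changes of 0.14 and 0.063, with 95% intervals of -0.20 to 0.48 and -0.19 to 0.31. ATG16L1, which places the enzymes on the membrane, was the 1 member of the group with a lower mean in the DAC group (log2 fold change -0.16, 95% interval -0.51 to 0.20). ATG10, under the minimum level, was at 0.555, 1.15 and 0.690 FPKM in the sham samples and at 0.934, 1.38 and 0.784 FPKM in the DAC samples. ATG4C, also not tested, was at 0.797 to 1.19 FPKM in the sham group and 0.914 to 1.10 FPKM in the DAC group.

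**Figure D4:**
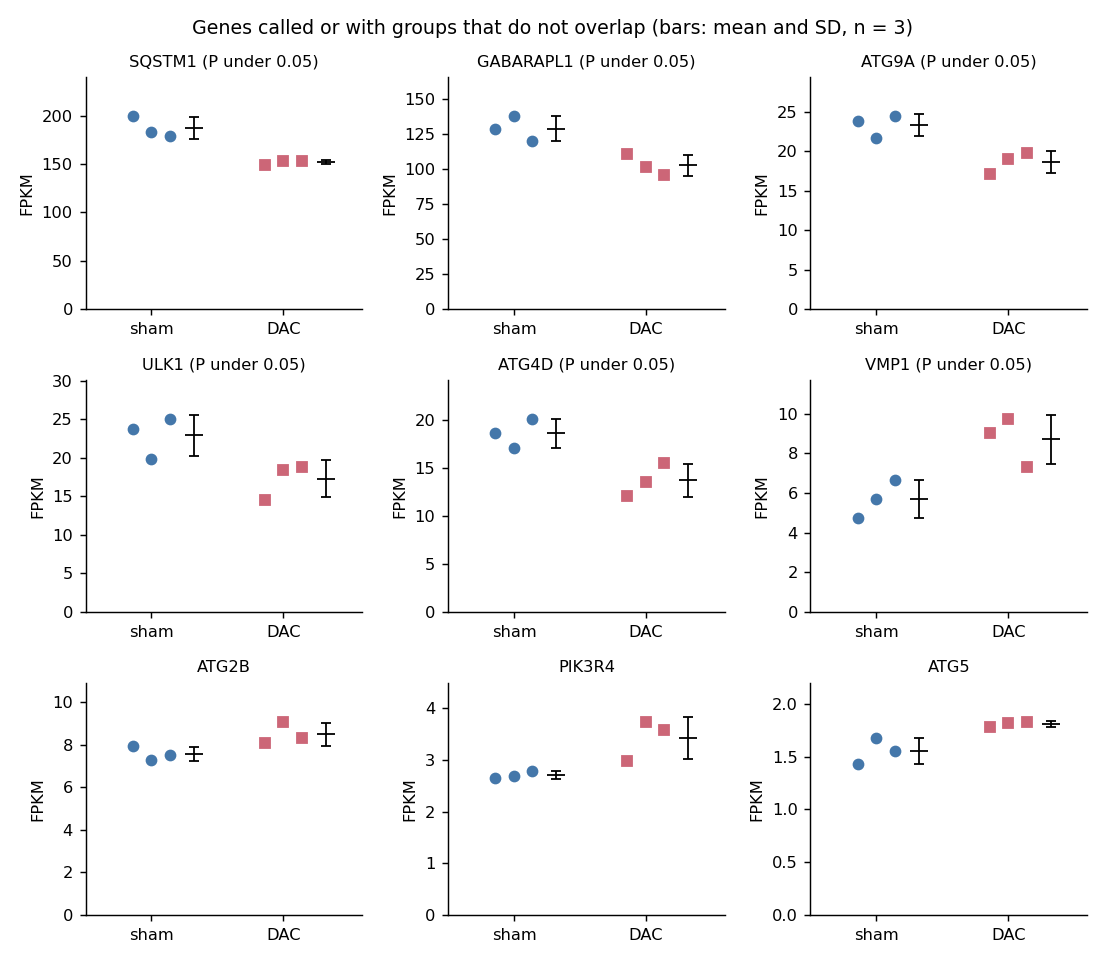
FPKM per minipig (circles sham, squares DAC) with mean and SD (n = 3) for the 6 called genes and for PIK3R4, ATG2B and ATG5, whose groups also did not overlap. Each axis starts at 0. In all 9 panels the DAC points lie wholly on one side of the sham points, and the gap is narrow in ATG2B, where the nearest values are 7.92 and 8.06 FPKM.

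The values of the called genes were also read against the mitochondrial share, which did not overlap between the groups. Once the mitochondrially encoded genes were removed and the remaining FPKM brought to a common total per sample, the same 5 genes were downregulated. Their log2 fold changes were then -0.25 for SQSTM1, -0.28 for GABARAPL1, -0.27 for ATG9A, -0.35 for ULK1 and -0.37 for ATG4D. VMP1 was at 0.58. Under this scaling 3.69% of all genes were called downregulated and 4.54% upregulated. After quantile normalization 3 of the 5 genes were called, beside 4.25% of all genes downregulated and 3.79% upregulated.

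**Figure D5:**
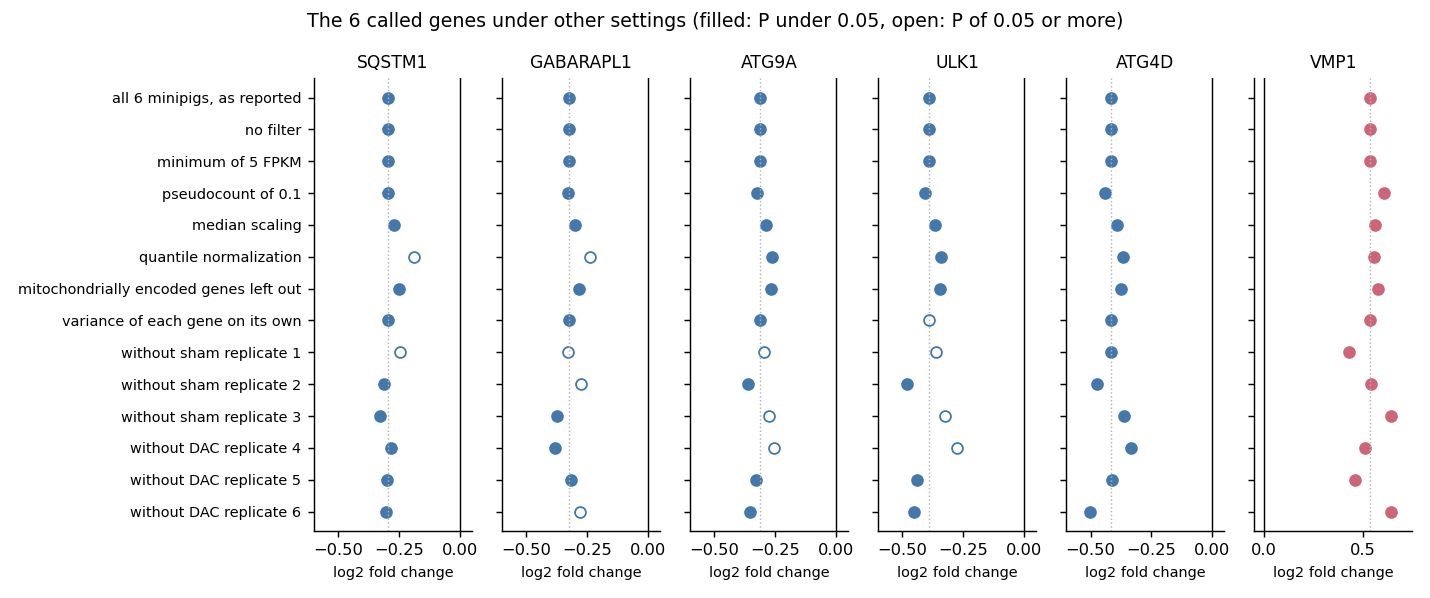
Log2 fold change (horizontal axis) of the 6 called genes in all 6 minipigs and under 13 other settings (rows), with filled points where P was under 0.05 and a dotted line at the value in all minipigs. Each gene keeps its direction in every row. ATG4D and VMP1 are filled throughout, and SQSTM1 and GABARAPL1 are open after quantile normalization.

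Other genes of the pathway were taken from 5 lists, of which 92 of 103 genes were found and 91 tested. By limma no gene of the 91 was upregulated and 3 were downregulated (3.30%, against 5.27% of all genes tested), with a median log2 fold change of -0.052. Every DAC sample lay below every sham sample in 12 of them (13.2%, against 8.91% of all genes tested) and above in 4 (4.40%, against 6.01%). Among 36 tested kinases and regulators upstream, 2 were downregulated (5.56%, near the share of all genes). DDIT4, a stress-induced inhibitor of the mTOR kinase that restrains autophagy, was at 83.1, 90.1 and 78.1 FPKM in the sham samples and at 53.0, 46.2 and 45.0 FPKM in the DAC samples (log2 fold change -0.79, limma adjusted P = 0.222). PRKAB1, a regulatory subunit of the energy-sensing kinase AMPK, was at 4.80, 3.57 and 3.95 FPKM in the sham samples and at 3.43, 1.83 and 2.05 FPKM in the DAC samples (log2 fold change -0.59, limma adjusted P = 0.522). Its more abundant paralog PRKAB2 had means of 15.6 FPKM for sham and 17.4 FPKM for DAC (log2 fold change 0.14) and was not called. The AMPK subunit genes PRKAA1 (0.17), PRKAA2 (0.044), PRKAG1 (0.095) and PRKAG2 (0.45) were not called either. The kinase MTOR itself had a log2 fold change of -0.16 (95% interval -0.52 to 0.19). Of 19 further cargo receptors, 1 was downregulated (5.26%, near the share of all genes), TOLLIP, a ubiquitin-binding adaptor. TOLLIP was at 70.0, 56.2 and 48.2 FPKM in the sham samples and at 39.4, 33.6 and 46.2 FPKM in the DAC samples (log2 fold change -0.53, limma adjusted P = 0.522).

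None of 12 further core genes, 14 genes for the fusion of autophagosomes with lysosomes and 10 transcription factors of autophagy genes was called. The share called over all genes tested was 8.51%, so few calls would be looked for in lists of this size. The median log2 fold change was -0.18, -0.042 and -0.060 in these lists. TFEB, the factor best known for driving lysosomal and autophagy genes, had a mean of 12.6 FPKM in the sham group and 11.7 FPKM in the DAC group (log2 fold change -0.093, 95% interval -0.42 to 0.24). FOXO3, which induces autophagy genes in muscle, had a log2 fold change of -0.065 (95% interval -0.37 to 0.24). NBR1, a receptor related to SQSTM1, had a log2 fold change of -0.25 (limma adjusted P = 0.608), and its groups overlapped.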

How the data were processed

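RNA was measured in ventricular tissue of 3 sham and 3 DAC minipigs, 1 column each. The authors deposited FPKM per gene. HISAT2 and susScr11 are named in the submitters' processing notes; the quantification program and its handling of shared reads are not given in the sources used here. Libraries came from an NEBNext Ultra kit. Every listed gene reaches at least 0.500 FPKM in its highest sample. Among genes under 3 FPKM, at most 6 of at least 4703 shared a log2 ratio between samples (4 decimals), so no whole-read steps were seen. Symbols were the table's, and 519 genes without a symbol took one from a table of gene identifiers.

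With R 4.3.3 and limma 3.58.1, log2(FPKM + 1) was compared by a linear model with moderated, mean-trended variance, over the 11029 genes that reached 1 FPKM in 3 samples or more. P was adjusted over these genes (Benjamini-Hochberg). The fit was tested on simulated independent values in which 200 genes were changed by a log2 fold of 1. It recovered 192 of them and called 4.89% of the unchanged genes. That change is larger than the change of any member, so the outcome does not cover changes of the size reported here. A gene was called at an unadjusted P under 0.05, as in the study, and the 95% interval corresponds to this threshold. Shares were compared by exact permutation over the 20 ways to divide the minipigs. Figures used Python 3.11.15 and matplotlib 3.10.9.

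The members and lists were chosen with earlier results of these data known. All members are named; those called, those whose groups did not overlap and the 5 most abundant have values by sample, and called genes of the other lists are named, up to 6 per list. Others were added as background after their values were seen (MTOR, TFEB, FOXO3, NBR1, DEPTOR, RAB7A, PRKAB2, PRKAA1, PRKAA2, PRKAG1, PRKAG2). Alternatives were no minimum level or 5 FPKM, a pseudocount of 0.1, median scaling, quantile normalization, removal of mitochondrially encoded genes, unmoderated variance and leaving out each minipig.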

Additional observations from a re-analysis of the deposited data

How the results depend on the processing

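The direction of each of the 6 called genes was the same under all 13 alternatives, and ATG4D and VMP1 were called in each. The number of downregulated members (5) was 3 after quantile normalization and between 1 and 5 with 1 sample left out. It was lowest without sham replicate 1 and at 3 without sham replicate 3 or DAC replicate 4. Of all genes tested, 4.25% were downregulated after quantile normalization, and 3.26%, 3.51% and 4.67% without these samples in turn. The number of upregulated members (1) was 2 with the mitochondrially encoded genes left out, 3 with the variance of each gene on its own, and between 1 and 2 with 1 sample left out. The median log2 fold change of the members (-0.048) was -0.027 after median scaling and -0.00074 after quantile normalization. It was -0.0093 with mitochondrially encoded genes left out, and between -0.049 and -0.0064 with 1 sample left out. The median over all genes tested (-0.016) moved as well, to 0.0043 after median scaling and 0.0047 after quantile normalization. It was 0.020 with mitochondrially encoded genes left out, and between -0.030 and -0.0066 with 1 sample left out. The number of other pathway genes downregulated (3) was 5 with the variance of each gene on its own, beside 4.81% of all genes tested. With 1 sample left out it was between 2 and 7, while the share of all genes was 3.26% to 6.11%. It was highest without DAC replicate 4 (7, beside 4.67% of all genes). Without sham replicate 2, sham replicate 3 or DAC replicate 6 it was 6, beside 5.82%, 3.51% and 6.11% of all genes in turn. The number of other pathway genes upregulated (0 by limma) was 1 with median scaling, with quantile normalization or with each variance on its own. It was 2 with the mitochondrially encoded genes left out, and between 0 and 2 with 1 sample left out. Of all genes tested, 3.89%, 3.79%, 3.25%, 4.54% and 2.19% to 4.26% were upregulated in these settings, in the same order. The difference in the share of MAP1LC3A in the ATG8 family (1.62 percentage points) was between -0.781 and 4.20 with 1 sample left out. The cause of these shifts was not tested. Every member that crossed the threshold under an alternative is given as such beside its gene. Leaving out samples from the shares of the ULK, ATG2 and ATG4 families was chosen after seeing the data. No paired analysis was possible because the labels number the animals 1 to 6 across both groups.

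With 3 minipigs a group, of unknown sequencing depth, differences of the size of the median standard error (0.14 on the log2 scale) are not resolved. Of the 35 members, 17 overlap the position of another listed gene, and reads may be split between them.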

Other observations

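In 2 other pathway genes, minipigs of the same group differed widely. DEPTOR, an inhibitor of the mTOR kinase, was at 0.713, 5.13 and 1.10 FPKM in the sham samples and at 4.36, 4.22 and 0.924 FPKM in the DAC samples, so that sham replicate 2 and DAC replicates 4 and 5 stood above the other three. RAB7A, a small GTPase of late endosomes and lysosomes, was at 19.7, 19.9 and 26.3 FPKM in the sham samples and at 11.3, 11.2 and 23.7 FPKM in the DAC samples, with DAC replicate 6 among the sham values. Both were chosen after their values were seen, and neither was called by limma.

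Within groups, the members were less spread than genes at large, though the genes were not matched for level. Their median coefficient of variation was 8.82% in the sham group and 11.8% in the DAC group, beside 12.2% and 14.7% over all genes tested, and no test was made of this difference. GABARAP was the most variable member tested, at 41.7% in the sham group and 52.8% in the DAC group, and SQSTM1 and ATG5 were among the most even in the DAC group, at 1.52% each. Sham replicate 1 had the lowest value of the 6 samples in 9 of the 33 members tested (27.3%), beside 16.0% of all genes tested.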
